A study of Homo sapiens with 6 samples.

Results

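The receptors described here are 9 genes that neuroblastoma cells are known to use for growth and survival signals, namely ALK, RET, NTRK2, NTRK3, NGFR, KIT, IGF1R, ERBB2 and ERBB3. They were chosen by name, and each probe set annotated with one of these symbols and no other was taken, which gave 25 probe sets of the 22215 on each array, for 9 of 11963 named genes. The arrays were 6 Affymetrix GeneChips, 3 from SH-SY5Y cells exposed to Bf 140 nM for 1 h and 3 from SH-SY5Y cells given the solvent alone, DMSO 0.6%, for 1 h. Bf is free bilirubin, the part of unconjugated bilirubin (UCB) that albumin does not bind, and the UCB was itself dissolved in DMSO. Both groups carried the replicate numbers 1 to 3, and the labels speak of independent biological replicates. SH-SY5Y is 1 established human neuroblastoma line, so the replicates are cultures of 1 line and not different tumours. The comparison asked whether the messages of these receptors moved within the first hour of UCB exposure.

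Of the 9 genes, 8 encode members of the receptor tyrosine kinase family. Most of this family act in pairs when a ligand binds outside the cell. They then phosphorylate each other and a set of docking proteins that lead to the RAS and PI3K pathways. NGFR, the p75 neurotrophin receptor, has no kinase and binds all neurotrophins, alone or beside the TRK kinases. In the sympathetic lineage from which neuroblastoma arises, RET takes up signals of the GDNF family, the TRK kinases those of the neurotrophins, and ALK is the receptor most often activated by mutation in this tumour.

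The arrays of replicate 3 stood apart from the other 4 in both groups (r of 0.961 to 0.977 with them over all probe sets, and at least 0.993 among those 4). The excess of 3′ over 5′ signal for the actin control, a common gauge of RNA integrity, was 1.49 log2 in Bf 140 nM, against 1.90 log2 in DMSO 0.6% for replicate 3, and between 0.10 and 0.50 log2 on the other arrays. Same-numbered arrays of both groups deviated together, so differences are also given within each replicate number.

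The signals fell into a bright and a dim set of receptors. RET, IGF1R and ALK had their brightest probe sets in the upper part of all signals on every array, and the brightest probe sets of the other 6 genes lay on average below the median. Signal rank was taken as the percentile of a probe set among the 22215 of the same array. RET was at 96.7 (range over the 6 arrays 95.5 to 97.6), IGF1R at 88.4 (85.9 to 90.3) and ALK at 78.8 (76.3 to 80.3). The ranges of these 3 brightest probe sets did not overlap, but those of dimmer probe sets of the same genes did. RET 215771_x_at ranged from 72.5 to 88.7, into the ranges given for IGF1R and ALK. IGF1R 203627_at ranged from 67.3 to 79.7, into that of ALK. ERBB2 followed at 47.7 (44.2 to 50.2), NTRK3 at 42.7 (41.0 to 45.9), KIT at 35.8 (31.2 to 39.7), NTRK2 at 29.3 (21.2 to 34.5), NGFR at 15.4 (11.7 to 18.4) and ERBB3 at 14.0 (10.7 to 17.2). In this order ERBB2 and NTRK3, KIT and NTRK2, and NGFR and ERBB3 were neighbours whose ranges overlapped. Probe sets bind their targets with different strength, so the ranks order signals and not amounts of message, and no detection calls were used here.

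**Figure D1:**
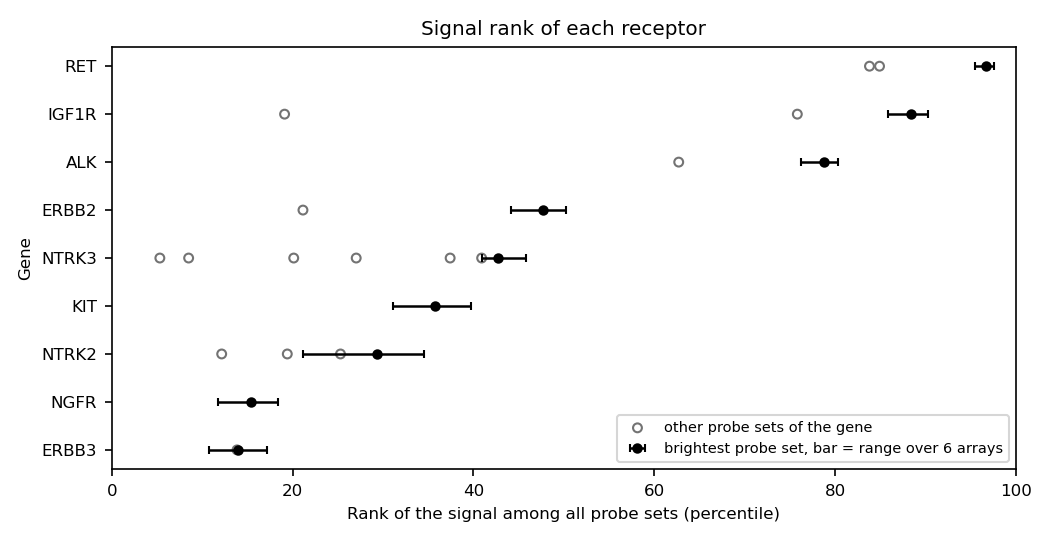
Signal rank of each receptor on the horizontal axis, as the percentile among all probe sets, for the 9 genes on the vertical axis. Filled points are the brightest probe set of a gene by its mean over the 6 arrays with a bar for the range over the arrays, and open points are the gene's other probe sets. RET, IGF1R and ALK lie at 96.7, 88.4 and 78.8, and IGF1R also has a probe set at 19.1.

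Markers of blood cells, which this line should lack, give a scale for the dim set. The brightest probe sets of the 4 measured lay between percentiles 10.1 and 39.1 (PTPRC lowest, HBB highest), and 4 melanocyte markers lay between 14.8 and 48.3. The brightest probe sets of KIT, NTRK2, NGFR and ERBB3 lay within the span of the blood markers. NTRK3 and ERBB2 lay above that span and within the span of the melanocyte markers only because of MITF, at 48.3. TYR at 31.7, MLANA at 14.8 and PMEL at 38.4 lay below both. Of 12 noradrenergic neuroblastoma markers, 10 lay above percentile 90, among them DBH at 98.3, GATA3 at 98.7 and PHOX2A at 96.8. HAND2 at 49.6 and TH, the first enzyme of catecholamine synthesis, at 13.9 were the exceptions. Of 11 mesenchymal markers, 1 lay above percentile 90, VIM at 99.4, and 8 lay above the median. The other 3 were CD44 at 26.5, YAP1 at 30.5 and COL1A2 at 43.1. The 3 measured Schwann markers, of cells that express ERBB3 and NGFR, lay between 35.5 and 46.5.

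After 1 h of Bf 140 nM no receptor passed the test against DMSO 0.6%. In limma 0 of the 25 receptor probe sets passed in either direction at an adjusted p (Benjamini-Hochberg) under 0.10, the false discovery rate of the study, where 0% of all probe sets passed, and the adjusted p was 1.00 for each of the 25. At an unadjusted p under 0.05, 0 of the 25 passed, where 0.0945% of all probe sets were higher and 0.0045% lower. With the replicate block 0 of the 25 passed this unadjusted threshold, where 0.941% of all probe sets were higher and 0.275% lower. In both fits far fewer probe sets passed than this threshold alone would give. The fit without the block also keeps the variation between replicate numbers in its error. A count of 0 of the 25 therefore says little by itself about the receptors. Without both replicate 3 arrays and with the block, 0 of the 25 passed the adjusted threshold, where 0.0855% of all were higher and 0.027% lower. The median difference was 0.00 log2 over the receptors and 0.01 log2 over all probe sets, 13 of the 25 differences were above 0 (58.4% of all probe sets) and 12 below (41.6%), and 20 were smaller than 0.1 log2 in size. In 0 of the 25 did the groups fail to overlap, where 2.06% of all probe sets did not overlap with Bf 140 nM higher and 0.59% with Bf 140 nM lower. The significance analysis of microarrays (SAM), the test of the study, also called 0 probe sets at an FDR of 10%. In RNA from whole cultures, a lower signal in every cell and a loss of the cells that carry the message cannot be told apart.

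The precision of the receptor differences was close to that of all probe sets, apart from a few wide intervals. The 95% confidence interval lay within 1.5-fold in both directions for 21 of the 25 probe sets (84%, and 79.5% of all). The other 4 were RET 205879_x_at, RET 215771_x_at, NTRK2 221796_at and IGF1R 203627_at, and the first 3 of these also reached beyond 2-fold, which leaves 22 of the 25 (88%) within 2-fold, where 95.4% of all probe sets were. Once the replicate number was blocked, the intervals of all 25 lay within 1.5-fold (99.9% of all). The widest of the blocked intervals ended at 0.40 log2, or 1.31-fold, and each of the 25 included 0. In this fit limma pools the variance over probe sets, and the 25 standard errors were nearly alike, 0.082 to 0.105 log2. The blocked widths therefore say little about the spread of a single probe set. On IGF1R 203628_at the differences in replicates 1 and 2, 0.44 and -0.13 log2, lay outside its blocked interval. On the scale of these values a difference of 1 log2 is 2-fold for bright probe sets, and folds of dim ones are understated. Of the 25 probe sets 18 were at or below the median level, and there a narrow interval bounds the probe signal and not the message.

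**Figure D2:**
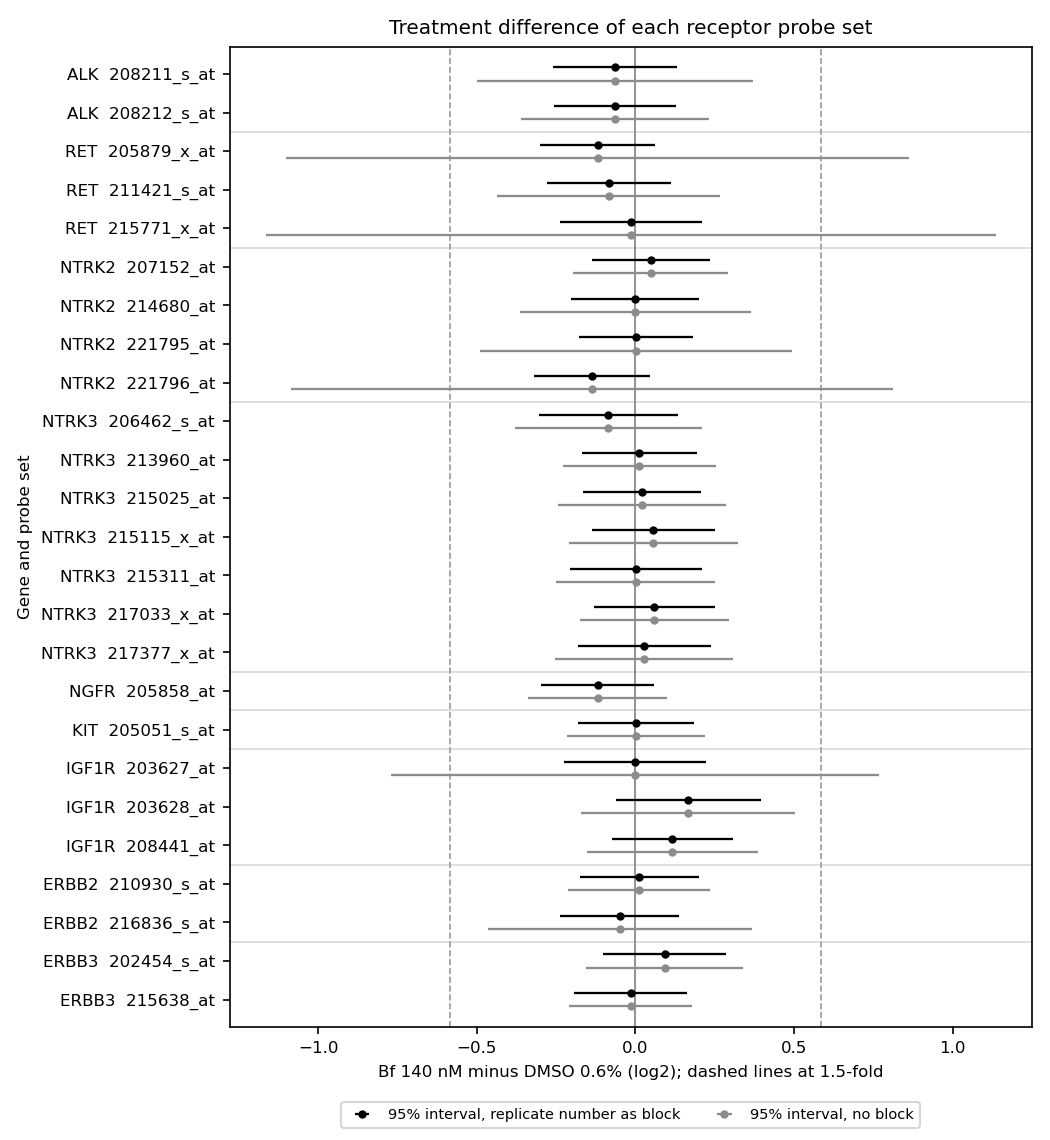
Difference of Bf 140 nM minus DMSO 0.6% after 1 h on the horizontal axis (log2) for the 25 probe sets on the vertical axis. Points are limma differences over 3 arrays per group, black bars 95% confidence intervals with the replicate number as a block, grey bars those without it, and dashed lines mark 1.5-fold. All black bars lie between the dashed lines, and 4 grey bars do not.

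RET, the kinase that signals for GDNF and its relatives, had the brightest probe set of the 9 genes. Its values on 211421_s_at were 12.17, 12.46 and 11.97 log2 in Bf 140 nM replicates 1, 2 and 3, against 12.35, 12.35 and 12.15 log2 in DMSO 0.6%. The replicate 3 array was the lowest in each group and the groups overlapped. The difference was -0.08 log2 (95% confidence interval -0.44 to 0.27), and it was -0.18, 0.11 and -0.18 within replicates 1, 2 and 3. The other RET probe sets, 205879_x_at and 215771_x_at, differed by -0.12 and -0.01 log2. In the platform's naming an x in the suffix marks probes that may bind further transcripts. On 215771_x_at the values were 10.39, 10.64 and 9.48 log2 in Bf 140 nM, against 10.69, 10.62 and 9.24 log2 in DMSO 0.6%, with replicate 3 far below the other arrays in both groups. Over the 6 arrays the 2 x probe sets followed each other (Pearson r = 0.99) and each followed 211421_s_at (r = 0.85 and 0.81). The replicate 3 arrays were lowest on all 3 RET probe sets, and the points share these arrays.

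ALK, a kinase of the insulin receptor superfamily, was measured by 2 probe sets that did not move together. On 208212_s_at the values were 9.89, 9.52 and 9.72 log2 in Bf 140 nM, against 9.79, 9.67 and 9.87 log2 in DMSO 0.6%. On 208211_s_at they were 8.72, 8.70 and 8.44 log2 in Bf 140 nM, against 8.93, 8.81 and 8.32 log2 in DMSO 0.6%. Replicate 3 was the lowest array in each group on the second probe set and not on the first, and r over the 6 arrays was -0.23. The differences were nonetheless alike, -0.06 log2 on both, with intervals of -0.36 to 0.23 on 208212_s_at and -0.50 to 0.37 on 208211_s_at. Within replicates 1, 2 and 3 the differences were 0.10, -0.14 and -0.15 on the first and -0.21, -0.10 and 0.12 on the second, so the sign in replicates 1 and 3 depended on the probe set.

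IGF1R, the receptor of insulin-like growth factors, had the largest positive difference among the 25, on its brightest probe set 203628_at. The values were 10.99, 10.61 and 10.64 log2 in Bf 140 nM, against 10.55, 10.73 and 10.45 log2 in DMSO 0.6%. The difference was 0.17 log2 (95% confidence interval -0.17 to 0.50, and -0.06 to 0.40 with the block), and it was 0.44, -0.13 and 0.19 in the 3 replicates. Bf 140 nM replicate 1 was the highest of the 6 arrays, and without it the difference was 0.04 log2, the lowest value when any array was left out. The probe set 208441_at, at percentile 19.1, differed by 0.12 log2 (-0.15 to 0.39), and by 0.024 log2 without DMSO 0.6% replicate 3, its lowest array. The probe set 203627_at had 9.90, 9.78 and 8.85 log2 in Bf 140 nM, against 9.63, 9.79 and 9.12 log2 in DMSO 0.6%, a difference of -0.001 log2 (-0.77 to 0.77) with replicate 3 lowest in each group. The 3 IGF1R probe sets correlated at r = 0.35 to 0.55.

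NTRK2, the TrkB kinase that binds BDNF, was measured by 4 probe sets, of which 2 differed above 0 and 2 below, from -0.14 to 0.05 log2. The brightest, 221795_at, had 7.14, 7.19 and 6.71 log2 in Bf 140 nM, against 7.15, 7.24 and 6.65 log2 in DMSO 0.6%, a difference of 0.00 log2 (-0.49 to 0.49). The most negative difference among the 25 was that of 221796_at, with 7.24, 7.11 and 6.09 log2 in Bf 140 nM, against 7.31, 7.22 and 6.32 log2 in DMSO 0.6%. It was -0.14 log2 (-1.08 to 0.81, and -0.32 to 0.05 with the block) and negative in 3 of 3 replicates. Differences were negative in 3 of 3 replicates for RET 205879_x_at and NGFR too, which makes 3 of the 25 (5.83% of all probe sets), and 0 of the 25 were positive in 3 of 3 replicates, where 11.8% of all probe sets were.

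The remaining NTRK2 probe sets were dimmer. On 207152_at the values were 6.57, 6.81 and 6.77 log2 in Bf 140 nM, against 6.63, 6.75 and 6.62 log2 in DMSO 0.6%, and on 214680_at they were 6.45, 6.50 and 6.33 log2 in Bf 140 nM, against 6.59, 6.57 and 6.11 log2 in DMSO 0.6%. Replicate 3 was lowest in each group on 214680_at and not in Bf 140 nM on 207152_at. The pair 221795_at and 221796_at correlated at r = 0.95, and the 6 pairs of NTRK2 probe sets ran from -0.17 to 0.95.

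NTRK3, the TrkC kinase that binds neurotrophin-3, had 7 probe sets, 6 with differences above 0 and 1 below, all between -0.08 and 0.06 log2. Its brightest, 217033_x_at, had 7.51, 7.59 and 7.59 log2 in Bf 140 nM, against 7.50, 7.64 and 7.38 log2 in DMSO 0.6%, a difference of 0.06 log2 (-0.18 to 0.30). The probe set 206462_s_at, the one below 0, differed by -0.08 log2 (-0.38 to 0.21), and by -0.38 in replicate 1 against 0.02 and 0.10 in the others. The 7 ranked between percentiles 5.3 and 42.7, and their 21 pairwise correlations over the 6 arrays ran from -0.58 to 0.91, with 12 above 0. The 3 x probe sets of NTRK3 correlated with each other at 0.80 to 0.91.

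NGFR had 1 probe set, 205858_at, and the smallest p of the 25 without the block. Its values were 6.58, 6.50 and 6.39 log2 in Bf 140 nM, against 6.65, 6.64 and 6.54 log2 in DMSO 0.6%. Each replicate was lower in Bf 140 nM, by -0.07, -0.13 and -0.15 log2, but Bf 140 nM replicate 1 lay above DMSO 0.6% replicate 3. The difference of -0.12 log2 had an interval of -0.34 to 0.10 (-0.30 to 0.06 with the block), an unadjusted p = 0.236 and an adjusted p = 1.00 from limma. An exact two-sided permutation test over the arrays gave p = 0.2, where 0.1 is the smallest that 3 arrays against 3 allow.

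KIT, the receptor of stem cell factor, had values of 7.36, 7.14 and 7.23 log2 in Bf 140 nM, against 7.26, 7.22 and 7.25 log2 in DMSO 0.6% on its only probe set, 205051_s_at. The difference was 0.00 log2 (-0.22 to 0.22), and the DMSO 0.6% arrays lay within the span of the Bf 140 nM arrays.

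ERBB2, which has no known ligand of its own and signals as the partner of other ERBB receptors, had 2 probe sets. On 216836_s_at it had 7.78, 7.95 and 7.51 log2 in Bf 140 nM, against 7.97, 7.92 and 7.50 log2 in DMSO 0.6%, a difference of -0.05 log2 (-0.47 to 0.37). On 210930_s_at the difference was 0.01 log2 (-0.21 to 0.23). They correlated at r = 0.71 over the 6 arrays, with replicate 3 lowest in DMSO 0.6% on both, while 210930_s_at was flat over the Bf 140 nM arrays (6.75, 6.76 and 6.76 log2). ERBB3, which binds neuregulins and depends on ERBB2 for most of its kinase activity, had 2 probe sets at almost the same rank, 14.0 and 13.9. On 215638_at the values were 6.54, 6.42 and 6.50 log2 in Bf 140 nM, against 6.51, 6.49 and 6.50 log2 in DMSO 0.6%, with a difference of -0.02 log2 (-0.21 to 0.18). On 202454_s_at they were 6.39, 6.53 and 6.69 log2 in Bf 140 nM, against 6.42, 6.48 and 6.43 log2 in DMSO 0.6%, with a difference of 0.09 log2 (-0.16 to 0.34). On 202454_s_at the difference was 0.26 log2 within replicate 3 and 0.01 log2 without both replicate 3 arrays.

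**Figure D3:**
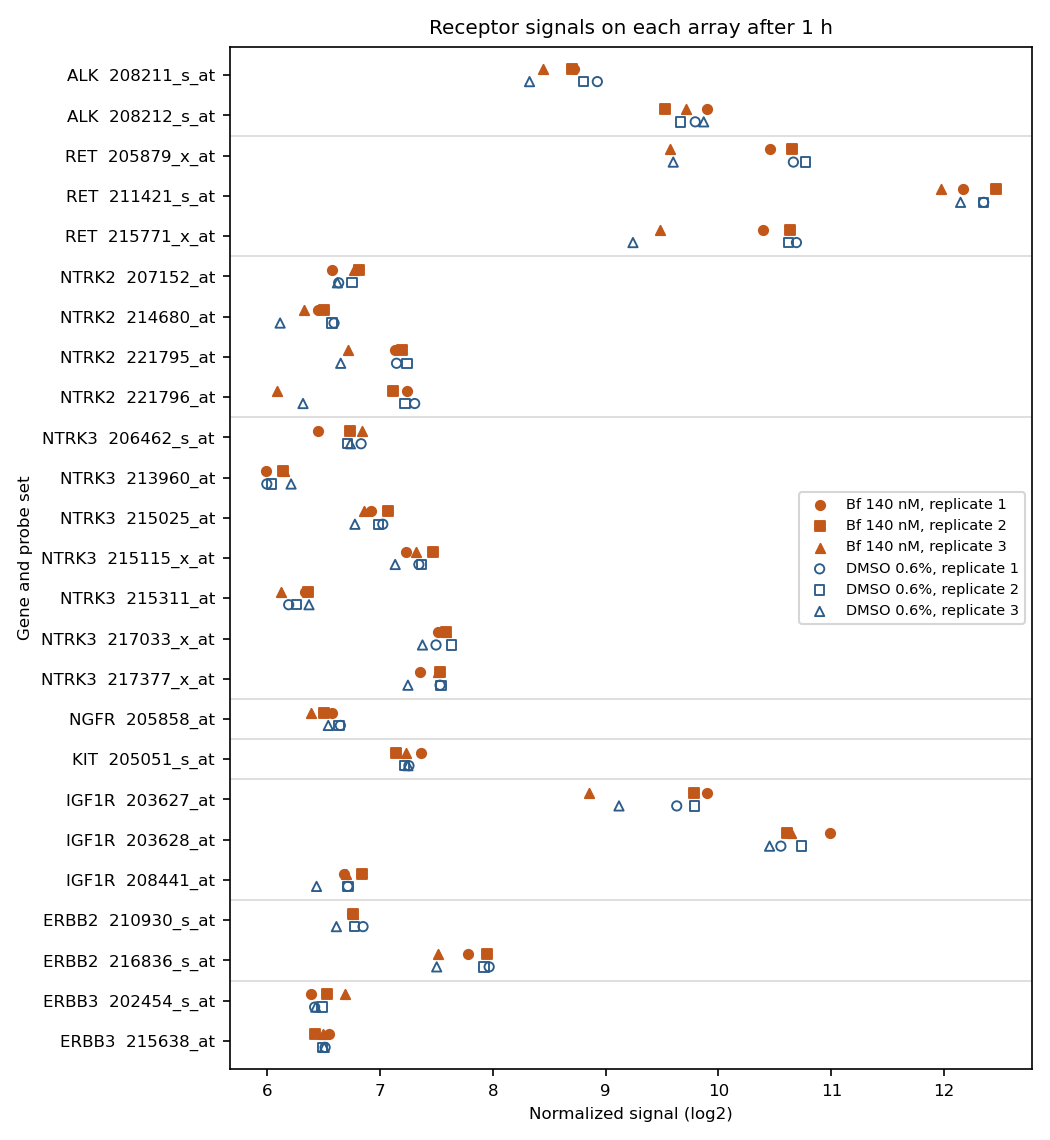
Normalized signal on the horizontal axis (log2) of the 25 receptor probe sets on the vertical axis. Filled orange symbols are Bf 140 nM and open blue symbols DMSO 0.6%, with circles, squares and triangles for replicates 1, 2 and 3. The groups overlap in every line, and the triangles of RET 205879_x_at and 215771_x_at lie below 9.60 while the other symbols of these lines lie above 10.3.

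The sign of the receptor differences varied with the replicate number. They were above 0 for 7, 11 and 15 of the 25 probe sets in replicates 1, 2 and 3 (56.0%, 48.4% and 57.3% of all probe sets), with medians of -0.07, -0.01 and 0.08 log2. The spread was narrowest in replicate 2, from -0.14 to 0.12 log2.

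The replicate 3 arrays were lower for many of the receptors in both treatments. The mean of both replicate 3 arrays was below that of the other 4 arrays for 19 of the 25 receptor probe sets (76.0%, and 61.7% of all probe sets). In 10 of the 25 both replicate 3 arrays were below each of the other 4, and 34.1% of all probe sets shared this pattern. The largest shifts were those of RET 215771_x_at at -1.22 log2, RET 205879_x_at at -1.05, NTRK2 221796_at at -1.02 and IGF1R 203627_at at -0.79 log2. The first 3 lay below the 5th percentile of all probe sets, -0.80 log2. Each of these genes had another probe set with a much smaller shift, -0.27 log2 on RET 211421_s_at, 0.01 on NTRK2 207152_at and -0.18 on IGF1R 203628_at. The shift was present in both treatments, for RET 215771_x_at at -1.03 log2 in Bf 140 nM, against -1.41 log2 in DMSO 0.6%. The replicate 3 arrays also had the larger 3′ excess of actin given above, which was higher in DMSO 0.6% than in Bf 140 nM. Both RET x probe sets shifted further in DMSO 0.6%. NTRK2 221796_at (-1.085 log2 in Bf 140 nM, -0.947 in DMSO 0.6%) and IGF1R 203627_at (-0.986 and -0.591) shifted further in Bf 140 nM. The part of RNA integrity in these shifts was not tested.

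**Figure D4:**
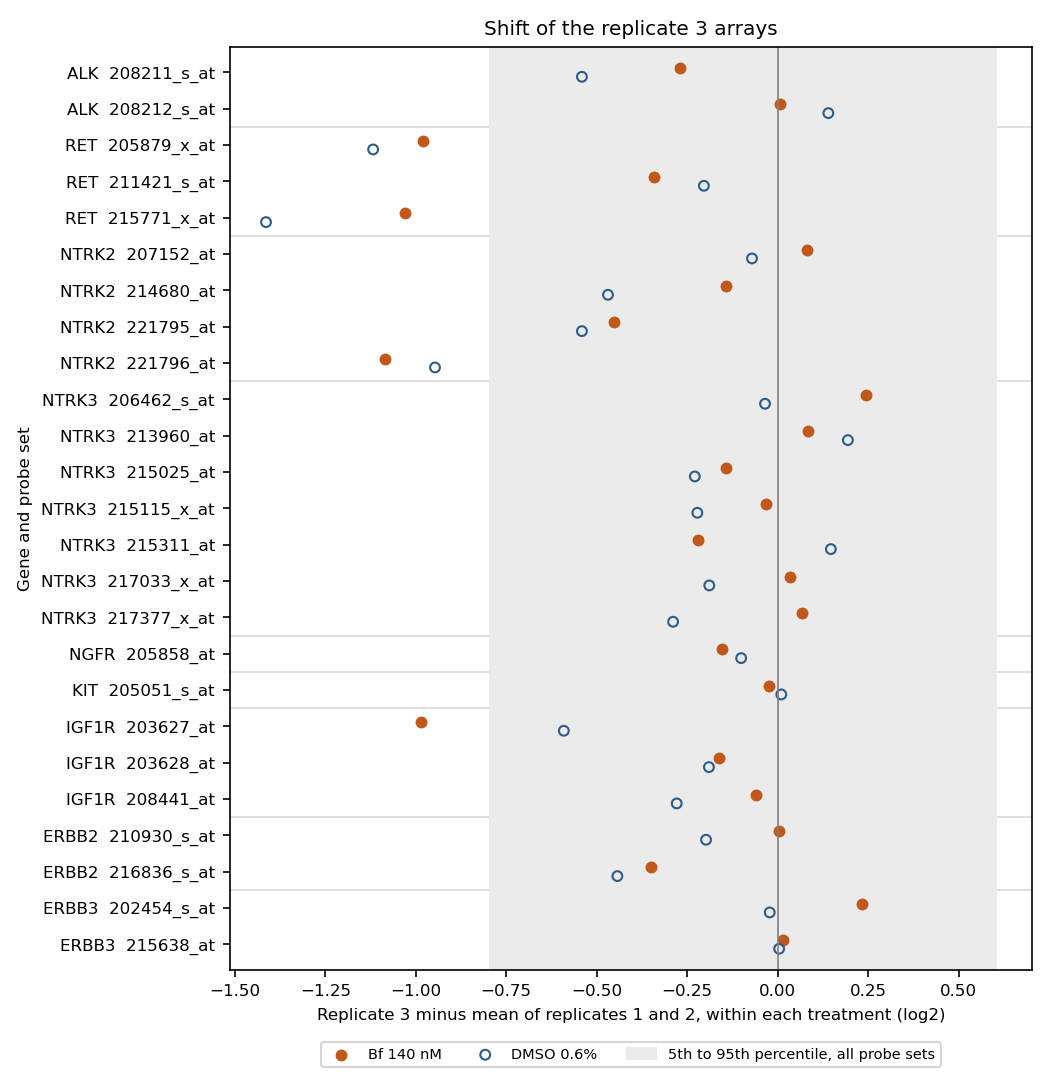
Replicate 3 minus the mean of replicates 1 and 2 on the horizontal axis (log2), within Bf 140 nM (filled) and within DMSO 0.6% (open), for the 25 receptor probe sets on the vertical axis. The grey band spans the 5th to the 95th percentile, -0.80 to 0.60 log2, of the shift averaged over both treatments for all probe sets. Both points of RET 205879_x_at, RET 215771_x_at and NTRK2 221796_at lie left of the band.

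The ligands, co-receptors and first effectors of these receptors did not pass the adjusted threshold either. In 6 lists, 77 of 100 genes were measured by 157 probe sets, and 0 of the 157 passed the adjusted threshold of limma in either direction, with or without the block. At an unadjusted p under 0.05 from limma 0 of the 157 passed without the block, and with it 2 were higher, NRG2 and PIK3R1, and 0 lower. The groups did not overlap with Bf 140 nM higher in 4 of the 157 (2.55%, and 2.06% of all probe sets) and with Bf 140 nM lower in 1 (0.637%, and 0.59% of all). Each list is described below by up to 3 probe sets of smallest p, and not by all probe sets of a gene. Several were dim, with PDGFRA at percentile 3.4, TGFA at 4.0, IGF1 209541_at at 7.1, GFRA1 at 9.1, KDR at 11.5 and ERBB4 at 13.8. KIDINS220 212163_at at 91.6, IGFBP6 at 59.5 and PIK3R1 at 50.1 were brighter. For the dim ones the differences are those of probe signal and not of message.

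In the neurotrophin list, with 6 of 11 genes measured, the median difference was -0.05 log2. KIDINS220, a membrane scaffold of TRK receptors, differed by -0.07 and 0.07 log2 on the 2 of its probe sets with the smallest p, and BDNF, the ligand of NTRK2, by 0.06 log2 (-0.18 to 0.30). In the list of GDNF family ligands and co-receptors of RET, with 7 of 8 genes measured, the median was 0.03 log2. GFRA1, which presents GDNF to RET, differed by 0.13 log2 (-0.19 to 0.45) and by 0.001 without Bf 140 nM replicate 3, PSPN, the ligand persephin, by -0.08 and GFRA4, its co-receptor, by 0.07. In the list of ligands and binding proteins for ALK, KIT and IGF1R, with 11 of 13 genes measured, the median was 0.04 log2. IGF1, a ligand of IGF1R, differed by 0.16 log2 (-0.07 to 0.40) and 0.13 on its 2 probe sets with the smallest p, and IGFBP6, which binds IGF2, by 0.15 (0.035 without DMSO 0.6% replicate 3).

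The ERBB list, with 9 of 11 genes and 20 probe sets, had a median of 0.05 log2. It held the 2 smallest p of all the lists in the fit without the block, those of ERBB4, a neuregulin receptor, and NRG2, a neuregulin. ERBB4 averaged 6.58 log2 in Bf 140 nM, against 6.41 log2 in DMSO 0.6% on 206794_at, a difference of 0.17 log2 (-0.02 to 0.36) that was 0.13, 0.12 and 0.26 in the 3 replicates. NRG2 averaged 7.88 log2 in Bf 140 nM, against 7.68 log2 in DMSO 0.6% on 206879_s_at, a difference of 0.21 log2 (-0.03 to 0.44, and 0.01 to 0.40 with the block) that was 0.34, 0.03 and 0.24. Neither passed the adjusted threshold (adjusted p = 1.00 from limma for both), and the groups did not overlap in either. TGFA, a ligand of EGFR, differed by -0.10 log2, and by -0.016 without both replicate 3 arrays.

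Among other receptor kinases, with 14 of 16 genes measured and a median of 0.02 log2, KDR, a receptor of VEGF, differed by 0.15 log2, PDGFRA by 0.17 and LTK, the closest relative of ALK, by 0.15 (0.009 without both replicate 3 arrays). Among adaptors and first effectors, with 30 of 41 genes measured and a median of 0.01 log2, PIK3R1, the regulatory subunit of PI3 kinase, differed by 0.24 log2 (-0.11 to 0.58, and 0.02 to 0.45 with the block). DMSO 0.6% replicate 1 was the lowest of the 6 arrays for PIK3R1, and without it the difference was 0.095 log2. GRB10, an adaptor of IGF1R, differed by 0.13 log2 on 210999_s_at and MAP2K2, the kinase MEK2, by -0.14 log2 on 213487_at, both without overlap of the groups. These probe sets, like those of ERBB4 and NRG2, were named for their small p, and that choice favours groups without overlap.

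The probe sets whose values over the 6 arrays were most like those of a receptor's brightest probe set reached r of 0.98 to 1.00 among 19039 candidates with 1 symbol. They belonged to EML4 for NTRK2, PTK7 for ERBB2, IGKC for RET, ACSF2 for IGF1R, CX3CR1 for ALK, CA5B for NTRK3, ZCCHC24 for KIT, SZRD1 for NGFR and NAA60 for ERBB3. The number of candidates above r = 0.95 ran from 11 for NGFR, 16 for IGF1R and 28 for ERBB3 to 948 for ERBB2 and 1484 for NTRK2, with 87 for RET. Each r is the highest of 19039 over only 6 arrays, so these pairs do not show shared regulation. The brightest probe sets of NTRK2 and ERBB2 shifted by -0.496 and -0.397 log2 in replicate 3. The part of that shift in the counts was not tested.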

How the data were processed

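The deposited values, 1 column per array, are log2 signals that the authors made from GCOS cell intensities by variance-stabilizing normalization under R 2.5.0. The method gives base 2, and values reach 15.1, above the 11.09 that a natural log of the largest scanner reading would give. The sources used here do not give how probes were summarized or which arrays were normalized together. The Present-call filter that the methods describe was left out, as calls were not used here. By the platform's annotation 19064 probe sets had 1 gene symbol, 1043 had several and 2108 had none. No genome build was used.

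limma 3.58.1 in R 4.3.3 (lmFit, eBayes, 95% confidence intervals) was fitted to the 22215 probe sets left after 62 controls, with Benjamini-Hochberg adjustment over all of them and no filter. It was tested on simulated data, as was SAM, rewritten with all 20 label permutations. The simulated noise was independent between arrays and held no replicate 3 shift. It therefore cannot show how either test behaves with that shift. The number of arrays limits the precision. Correlations between the group-mean deviations of arrays that share a number were 0.725, 0.783 and 0.880. The replicate 3 shift enters all of these deviations, so they alone cannot show that numbers 1 and 2 pair the samples. Of the arrays in the other group, each array correlated best with its same-numbered one (r of 0.995 to 0.998). The sample descriptions also carry a number that is the same for same-numbered replicates of both groups. The labels and methods do not state a pairing in words, and the block was kept as an alternative. The main fit thus leaves the variation between replicate numbers in its error.

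The members, the lists and the tests were chosen with earlier results of these data known. All member probe sets were described, with up to 3 probe sets of smallest p in each list and, for each receptor, the probe set of highest correlation with its brightest one. The alternatives were the block, quantile normalization, equal array medians, a filter at the lower quartile, trend and robust settings, leaving out each array or both replicate 3 arrays, adjusted p thresholds of 0.05 and 0.2, and SAM. Leaving out both replicate 3 arrays with the block was chosen after seeing the data.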

Additional observations from a re-analysis of the deposited data

How the results depend on the processing

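No call of a receptor changed under any alternative. The count of the 25 probe sets past an adjusted p under 0.10 by limma was 0 in each of them, with the replicate block included, and the lowest adjusted p was 0.969. Over all probe sets the count was also 0, by SAM and at adjusted p thresholds of 0.05 and 0.2 too, except without both replicate 3 arrays and with the replicate block, where 25 passed, 19 higher and 6 lower, 0 of them receptors. In that setting every receptor probe set had the same standard error, 0.105 log2. These calls therefore rest on the size of the difference and not on an error specific to a probe set. Probe sets below the lower quartile of mean signal have no value under the filter. Signal ranks moved by less than their spread over the arrays.

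The signs of the differences were not stable, and the cause was not tested. They turned for 21 of the 25 receptor probe sets when an array or both replicate 3 arrays were left out, and held under every alternative run for NGFR, ERBB3 202454_s_at and IGF1R 203628_at and 208441_at. The fits without a single array had no block, so leaving out a replicate 3 array kept the replicate 3 shift in the other group alone. For RET 205879_x_at the difference was 0.208 log2 without Bf 140 nM replicate 3 and -0.492 log2 without DMSO 0.6% replicate 3. Without both it was -0.165 log2. With arrays left out the differences, in log2, ran from -0.245 to 0.056 for ALK 208211_s_at, -0.156 to 0.030 for ALK 208212_s_at, -0.492 to 0.208 for RET 205879_x_at, -0.212 to 0.030 for RET 211421_s_at, -0.486 to 0.329 for RET 215771_x_at, -0.002 to 0.123 for NTRK2 207152_at, -0.157 to 0.082 for NTRK2 214680_at, -0.178 to 0.153 for NTRK2 221795_at, -0.452 to 0.225 for NTRK2 221796_at. They ran from -0.177 to 0.026 for NTRK3 206462_s_at, -0.030 to 0.077 for NTRK3 213960_at, -0.055 to 0.069 for NTRK3 215025_at, -0.017 to 0.111 for NTRK3 215115_x_at, -0.043 to 0.124 for NTRK3 215311_at, -0.014 to 0.127 for NTRK3 217033_x_at, -0.091 to 0.083 for NTRK3 217377_x_at, -0.057 to 0.052 for KIT 205051_s_at. They ran from -0.198 to 0.328 for IGF1R 203627_at, -0.056 to 0.063 for ERBB2 210930_s_at, -0.196 to 0.068 for ERBB2 216836_s_at, -0.044 to 0.018 for ERBB3 215638_at, -0.024 to 0.108 for BDNF 206382_s_at, -0.175 to 0.009 for PSPN 221373_x_at, -0.011 to 0.148 for GFRA4 221199_at, -0.020 to 0.207 for IGF1 209541_at. Without a change of sign they ran from -0.162 to -0.067 for NGFR 205858_at, 0.044 to 0.244 for IGF1R 203628_at, -0.132 to -0.023 for KIDINS220 212163_at, 0.006 to 0.114 for KIDINS220 214932_at, 0.10 to 0.228 for KDR 203934_at, 0.078 to 0.274 for PDGFRA 211533_at and -0.185 to -0.061 for MAP2K2 213487_at. Quantile normalization turned the sign to -0.027 for NTRK2 221795_at, -0.019 for NTRK3 213960_at, -0.002 for NTRK3 215025_at, -0.033 for NTRK3 215311_at, -0.031 for KIT 205051_s_at, -0.011 for ERBB2 210930_s_at. Equal array medians turned it to -0.017 for NTRK2 221795_at, -0.007 for NTRK3 213960_at, -0.018 for NTRK3 215311_at, -0.018 for KIT 205051_s_at, -0.008 for ERBB2 210930_s_at. Leaving out both replicate 3 arrays with the replicate block turned it to -0.002 for NTRK2 207152_at, -0.028 for NTRK2 221795_at, -0.008 for NTRK3 215025_at, -0.006 for NTRK3 215115_x_at, -0.014 for NTRK3 217033_x_at, -0.091 for NTRK3 217377_x_at, 0.131 for IGF1R 203627_at, -0.056 for ERBB2 210930_s_at, -0.024 for BDNF 206382_s_at, -0.011 for GFRA4 221199_at, -0.020 for IGF1 209541_at.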
